A study of Mus musculus with 10 samples.

Results

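The loci of 5 transcription factor genes, *Nr2f1*, *Nr2f2*, *Meis1*, *Meis2* and *Pbx3*, were examined for open chromatin in the mouse embryonic epicardium and in the mesenchymal cells that derive from it. Every summit (the point of highest signal inside a peak) that lay inside 1 of these genes or within 50 kb of it was taken, which gave 1156 of the 1071660 summits in 9 ATAC-seq libraries. ATAC-seq cuts and tags accessible DNA with a transposase, so a peak marks DNA that was open in the sorted cells. Regions that reach 250 bp to each side of a summit were drawn over all libraries. Where such regions overlapped, the one with the strongest summit was kept. This gave 184764 regions in the genome, and 169 of them belonged to the 5 loci. Of these, 128 were detected in at least 3 of the 9 libraries and were tested, as were 130905 regions in the whole genome.

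All embryos were C57BL/6J and carried *Rosa26tdTomato* and *Wt1CreERT2/+*, so that tamoxifen given to the mother at E9.5 labelled cells with an active *Wt1* promoter and their descendants. Cells were sorted from pooled hearts as CD31- tdTomato+ PDPN+ (epicardium, 3 libraries at E11.5 and 3 at E17.5) or CD31- tdTomato+ PDPN- (epicardium-derived cells, EPDC, with 1 library at E12.5 and 2 at E13.5). CD31 excludes endothelium, and podoplanin (PDPN) marks the mesothelial surface. The label is inherited, and the 2 gates differ in podoplanin only, so the PDPN- gate can hold any CD31- tdTomato+ descendant without podoplanin. No group held EPDC at a stage at which epicardium was analysed here, so the difference between EPDC and either epicardial group cannot be told apart from a difference in stage.

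NR2F1 and NR2F2 (COUP-TFI and COUP-TFII) are orphan nuclear receptors that bind direct repeats of the hexamer AGGTCA and act mostly as repressors. NR2F2 is known for its part in atrial and venous identity. MEIS1, MEIS2 and PBX3 are homeodomain proteins of the TALE class: MEIS proteins bind the hexamer CTGTCA (or TGACAG on the other strand), PBX proteins bind beside them as partners on a joined site, TGATTGAC, and both serve as cofactors of HOX and other factors in heart and limb development.

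The lists held 94909 to 142743 summits per library. The most frequent value of the background under a summit was 2.07 to 4.26 fragments in 8 libraries and 10.9 in EPDC E13.5 replicate 2, with the lowest in E17.5 replicate 1. The EPDC lists also held 252 to 268 summits outside the autosomes and sex chromosomes, which were left out, while the epicardial lists held 0. The study's methods describe a single pipeline for these libraries, and the part of this feature of the lists in the differences between EPDC and epicardium was not tested. Promoters of epicardial markers were detected for 10 to 12 of 12 genes in every library: that of *Wt1* ranked at 90.4 to 97.5 in all 9, and that of *Upk3b*, a mesothelial uroplakin, at 97.0 to 99.2 in epicardium but at 22.8 to 73.6 in EPDC. Promoters of mesenchymal genes were detected for 8 or 9 of 9 genes, and their median ranked at 84.9 to 89.9 in the 9 libraries. Among them, that of the matricellular gene *Postn* was not listed at E11.5, ranked at 43.5 to 50.2 at E17.5 and at 71.7 to 81.8 in EPDC, whereas that of the receptor gene *Pdgfra* ranked at 71.2 to 77.0 at E17.5 and at 55.5 to 64.7 in EPDC. Of other cell types, 3 of 7 endothelial promoters were listed in every library, *Kdr* (88.1 to 93.2), *Tek* (78.9 to 85.8) and *Egfl7* (83.6 to 93.9), with *Pecam1*, *Cdh5*, *Emcn* and *Tie1* at 0 throughout. For blood it was 1 or 2 of 7, among them *Cd68* (0 to 79.9), with *Ptprc*, *Hba-a1*, *Gata1*, *Csf1r* and *Spi1* at 0. For cardiomyocytes it was 4 to 6 of 7 at E11.5 and 3 of 7 elsewhere, with *Myh6* at 0. Of these, *Tnnt2* ranked at 85.5 to 89.7 at E11.5, at a median of 63.0 at E17.5 and at 78.0 to 83.6 in EPDC, and *Actc1* at 36.3 to 54.1, 0 and 28.3 to 36.2, so that both were lowest at E17.5, as were several regions below, whereas *Myh7* was highest there (31.6 to 59.8) and 0 in EPDC. The part of these promoters in the differences between groups was not tested.

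The results below turn on a handful of distal regions whose sequence is shown here, each as the 201 bp around its summit on the + strand of GRCm38.p6 (all 5 genes lie on the - strand), with any of the searched motifs in capitals. A region is named by the distance from the annotated start of its gene, counted positive in the direction of transcription. The first set comes from *Meis2*, and holds 2 regions with large differences between groups: +102.9 kb (chr2:115962853-115963053, intron), with AGATAA, a motif of GATA factors, on the other strand, and +86.0 kb (chr2:115979774-115979974, intron), with the MEIS hexamer CTGTCA.
Meis2 +102.9 kb: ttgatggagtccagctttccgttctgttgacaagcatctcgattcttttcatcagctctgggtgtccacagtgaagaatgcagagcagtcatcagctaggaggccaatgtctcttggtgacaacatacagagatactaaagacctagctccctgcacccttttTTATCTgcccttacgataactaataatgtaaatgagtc
Meis2 +86.0 kb: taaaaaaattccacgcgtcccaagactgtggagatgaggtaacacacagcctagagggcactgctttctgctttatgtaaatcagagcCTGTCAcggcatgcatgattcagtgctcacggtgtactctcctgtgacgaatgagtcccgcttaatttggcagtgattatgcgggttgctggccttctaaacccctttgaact

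The second set holds the region that separated the epicardium from EPDC at *Nr2f2*, +62.1 kb (chr7:70304541-70304741, intergenic, inside the lincRNA Gm29683), the *Pbx3* region with the largest fall from E11.5 to EPDC, +17.1 kb (chr2:34355944-34356144, intron), and that with the largest fall from E11.5 to E17.5, +4.6 kb (chr2:34368424-34368624, exonic). None of the searched motifs lies within the first 2 windows, and a CAGCTG is present in the third.
Nr2f2 +62.1 kb: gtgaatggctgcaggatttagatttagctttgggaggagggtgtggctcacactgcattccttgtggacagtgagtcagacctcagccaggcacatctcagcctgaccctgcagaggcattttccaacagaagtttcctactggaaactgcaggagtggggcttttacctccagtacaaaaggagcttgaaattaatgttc
Pbx3 +17.1 kb: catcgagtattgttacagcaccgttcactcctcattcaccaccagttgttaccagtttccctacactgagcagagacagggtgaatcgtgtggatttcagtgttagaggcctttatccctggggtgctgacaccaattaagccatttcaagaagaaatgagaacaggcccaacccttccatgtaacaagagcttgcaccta
Pbx3 +4.6 kb: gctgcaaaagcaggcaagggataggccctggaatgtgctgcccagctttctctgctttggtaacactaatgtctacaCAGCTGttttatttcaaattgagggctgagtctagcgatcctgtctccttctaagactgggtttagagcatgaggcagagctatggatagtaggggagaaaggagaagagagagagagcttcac

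The last is the region at -1.3 kb of *Meis2* (chr2:116067055-116067255, intergenic, inside the lincRNA 2700033N17Rik), the only tested region of the 5 loci that held the joined PBX and MEIS site, here as GTCAATCA, between 2 CAGCTG E-boxes.
Meis2 -1.3 kb: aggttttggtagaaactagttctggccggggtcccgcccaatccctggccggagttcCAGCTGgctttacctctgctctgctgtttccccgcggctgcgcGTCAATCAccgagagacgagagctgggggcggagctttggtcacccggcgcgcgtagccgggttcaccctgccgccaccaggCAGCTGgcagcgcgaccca

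The 5 loci were open in every library, but with different density. *Meis2* held 63 regions (43 tested), *Meis1* 48 (42 tested), *Pbx3* 22 (15 tested), *Nr2f2* 20 (15 tested) and *Nr2f1* 16 (13 tested). Of the 169 regions, 56 (33.1%) were detected in all 9 libraries, compared with 24.7% of all regions. They were 8 of 16 at *Nr2f1*, 9 of 20 at *Nr2f2* and 21 of 48 at *Meis1*, but 15 of 63 at *Meis2* and 3 of 22 at *Pbx3*. Introns held most tested regions of *Meis1* (27), *Meis2* (29) and *Pbx3* (10), whereas most at *Nr2f1* (10) and *Nr2f2* (12) lay outside the gene itself, which is what intergenic means here. All 10 of these at *Nr2f1* and 9 of the 12 at *Nr2f2* lay inside another annotated gene, non-coding except for *Fam172a*. A region is not listed in a library where no summit lay within 250 bp of its centre. Its signal may have fallen below the threshold of the peak caller there, or a listed peak with its summit farther away may cover it. A region that is not listed was thus not shown to be closed.

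The level of a region in a library is given as a rank percentile: the position of its summit among all summits of that library by the -log10 p of the peak caller, with 100 as the strongest and 0 where no summit was listed. Differences are in percentile points, and a difference passed the test at an adjusted p under 0.05 (limma, Benjamini-Hochberg over all regions tested). Of the 128 tested regions, 41 would miss the minimum of 3 libraries without those of 1 group (32.0%, and 37.3% of all regions), and 9 of them were listed in 1 group alone (7.03%, and 14.0% of all regions). Such a region was tested only because that group was high, so that the choice of regions favoured its difference, and those of them that are named are described without a test. The counts of regions that passed include them: 9 of those higher and 9 of those lower at E17.5 than at E11.5, 7 and 8 in EPDC against E11.5, and 7 and 10 in EPDC against E17.5. In these bulk libraries, fewer cells with an open region and a region less open in each cell cannot be told apart.

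**Figure D1:**
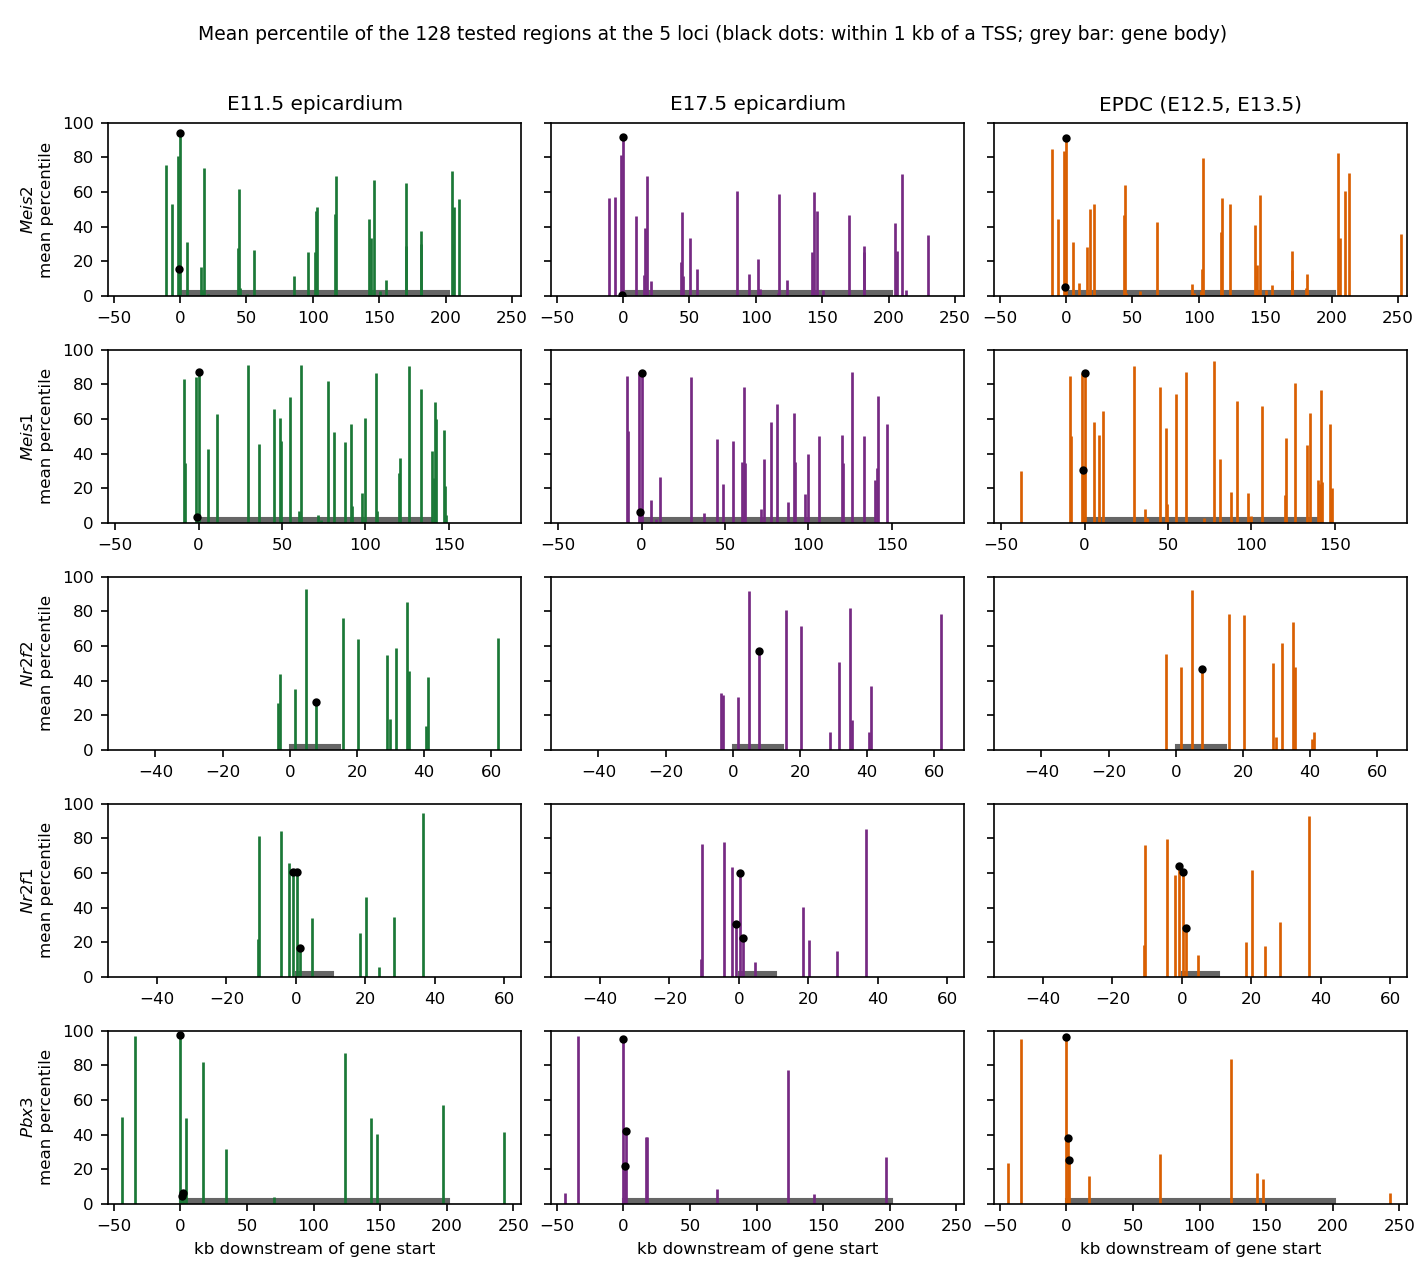
Rank percentile (y axis, 0 to 100) of the 128 tested regions at the 5 loci against its distance from the start of the gene in kb (x axis), as the mean of each group, with a row for each gene and a column for each group. Black dots mark promoter regions and grey bars the gene body, and the strongest at the *Meis1*, *Meis2* and *Pbx3* start sites stand above a percentile of 80 in all groups, and 11 of the 128 are promoter regions of the 5 genes.

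The strongest promoter region of each of the 3 TALE genes ranked high in every library. The *Pbx3* promoter, with its summit 7 bp from the nearest transcription start site (TSS), was among the strongest in the genome, at 97.9, 97.0 and 98.1 in E11.5 replicates 1 to 3, 95.2, 93.9 and 97.2 at E17.5, and 96.2, 96.7 and 96.6 in EPDC (E12.5, then E13.5 replicates 1 and 2). The *Meis2* promoter (+0.1 kb) ranked at 90.7 to 95.8 in the 9 libraries, and that of *Meis1* at 83.7 to 88.6. The groups overlapped at the *Meis1* promoter, and no difference passed the test at any of these 3 regions (adjusted p = 0.0679 at the lowest, for *Pbx3* between E11.5 and E17.5, limma). Without E17.5 replicate 3 that difference passed (-3.1 points, adjusted p = 0.0155).

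The *Nr2f* promoters ranked lower. The *Nr2f1* region at +0.4 kb, in the UTR, ranked at 52.8 to 67.1, with group means of 60.7 ± 7.2, 59.9 ± 2.4 and 60.4 ± 5.4 (E11.5, E17.5, EPDC; SD, n = 3), and the groups overlapped. A further *Nr2f1* region at -0.9 kb ranked at 41.2 to 68.0 in 8 libraries and was not listed in E17.5 replicate 1, the shallowest. All EPDC libraries lay above those of E17.5 (difference 33.3, adjusted p = 0.0529, limma). That difference passed with equal numbers of top summits (35.29 points, adjusted p = 0.0208), by fold enrichment (17.98, 0.0439), with a stricter threshold (33.35, 0.0407) and without E17.5 replicate 3 (43.46, 0.0218). E17.5 stood 30.0 points below E11.5 (adjusted p = 0.0788), and this passed without E17.5 replicate 3 (-40.21, 0.0338). At *Nr2f2*, which has alternative start sites, the strongest region of the locus was intronic at +4.9 kb (chr7:70361569-70362069), 1226 bp from the nearest TSS and so outside the promoter window, and ranked at 90.4 to 93.5 in all 9 libraries.

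Of the 11 tested promoter regions of the 5 genes, 2 rose from E11.5 to E17.5 (18.2%, and 11.2% of all regions) and 1 was higher in EPDC than at E11.5 (9.09%, and 12.7% of all regions), while 0 passed as lower in any comparison (limma; at an unadjusted p under 0.05, 2 were lower at E17.5 than at E11.5 and 0 in the other comparisons), where 30.5%, 28.0% and 20.0% of all regions were lower at E17.5 than at E11.5, in EPDC than at E11.5 and in EPDC than at E17.5. These shares cover promoter and distal regions together (17.2% promoters), and no share over promoters alone was taken. The promoter region that was higher both at E17.5 and in EPDC than at E11.5 was *Nr2f2* +7.7 kb, in an exon 850 bp from an internal TSS. It ranked at 26.2, 24.6 and 31.6 at E11.5, at 57.4, 61.8 and 52.1 at E17.5, and at 36.7, 51.8 and 51.4 in EPDC, so that all E17.5 and EPDC libraries lay above all E11.5 libraries. The rise to E17.5 was 29.6 points (SE 6.1, adjusted p = 0.00381, limma), 15.2 points (adjusted p = 0.0135) when summits were ranked by fold enrichment and 48.0 with equal numbers of top summits (adjusted p = 0.000181). The higher level in EPDC than at E11.5 (19.1 points, adjusted p = 0.0318, limma) was lost when any E11.5 library or either E13.5 EPDC library was left out, with differences of 16.5 to 21.2 points and adjusted p-values of 0.0543 to 0.124, and when ranked by fold enrichment (9.42 points, adjusted p = 0.0873). The other was *Pbx3* +1.9 kb, at 0, 19.0 and 0 at E11.5, 31.1, 50.6 and 45.4 at E17.5, and 1.8, 29.0 and 45.7 in EPDC. Its rise of 36.0 points (adjusted p = 0.0303, limma) was lost without E11.5 replicate 1 or 3 or E17.5 replicate 2 or 3 (31.93 to 34.5 points, adjusted p = 0.0851 to 0.0938), with any overlapping peak counted (50.48 points, 0.154) and when ranked by fold enrichment (7.06 points, 0.112). The third promoter region of *Pbx3*, at +1.0 kb, ranked at 0, 13.3 and 0 at E11.5, at 0, 40.4 and 26.0 at E17.5, and at 16.8, 32.3 and 64.5 in EPDC, and no difference passed the test (adjusted p = 0.076 at the lowest, EPDC against E11.5, limma). That difference passed with equal numbers of top summits (28.2 points, adjusted p = 0.0433) and without EPDC E12.5 (43.96 points, adjusted p = 0.0319).

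To see how the loci changed between early and late epicardium, E17.5 was compared with E11.5. More regions fell than rose: 33 of the 128 fell (25.8%) and 13 rose (10.2%), where 30.5% of all regions fell and 11.2% rose. *Pbx3* stood at 8 of 15 lower and 2 higher, *Meis1* at 12 of 42 lower and 3 higher, *Meis2* at 10 of 43 lower and 7 higher, *Nr2f1* at 2 of 13 lower and 0 higher, and *Nr2f2* at 1 of 15 each way. The median difference of all regions was -5.51 points. When the same number of top summits was taken from every library the median was 0.0, and 25 member regions fell and 21 rose, so that 45.7% of the member calls were higher against 28.3%. For all regions this share was 45.6% against 26.9%. The count of 13 higher also rested on single E17.5 libraries: it was 7 without replicate 2 and 8 without replicate 3.

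In EPDC compared with E11.5 epicardium, 23 of the 128 regions were lower (18.0%) and 11 higher (8.59%), where 28.0% of all regions were lower and 12.7% higher. *Pbx3* accounted for 7 of the 23. *Meis2* had 5 lower and 6 higher, *Meis1* 8 and 3, and *Nr2f2* 3 and 2. None of the 13 regions of *Nr2f1* passed (limma; at an unadjusted p under 0.05, 1 was lower and 0 higher). With equal numbers of top summits, 16 were lower and 22 higher (57.9% of calls higher, against 32.4%; for all regions 46.2% against 31.2%). The number lower was 13 without E11.5 replicate 2 and 15 without replicate 3, and the number higher was 5 without either E13.5 EPDC library.

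In EPDC compared with E17.5 epicardium the balance was the other way, with 26 regions higher (20.3%) and 17 lower (13.3%), where 24.2% of all regions were higher and 20.0% lower. Most of these were at the *Meis* genes, which also held most tested regions. At *Meis1*, 12 of 42 were higher (28.6%) and 5 lower (11.9%), and at *Meis2* 11 of 43 were higher (25.6%) and 7 lower (16.3%). *Nr2f1* had 2 higher and 0 lower, *Nr2f2* 1 and 4, and *Pbx3* 0 and 1. With equal numbers of top summits the counts were 28 and 24. Without E17.5 replicate 2 or 3 the number lower was 11.

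**Figure D2:**
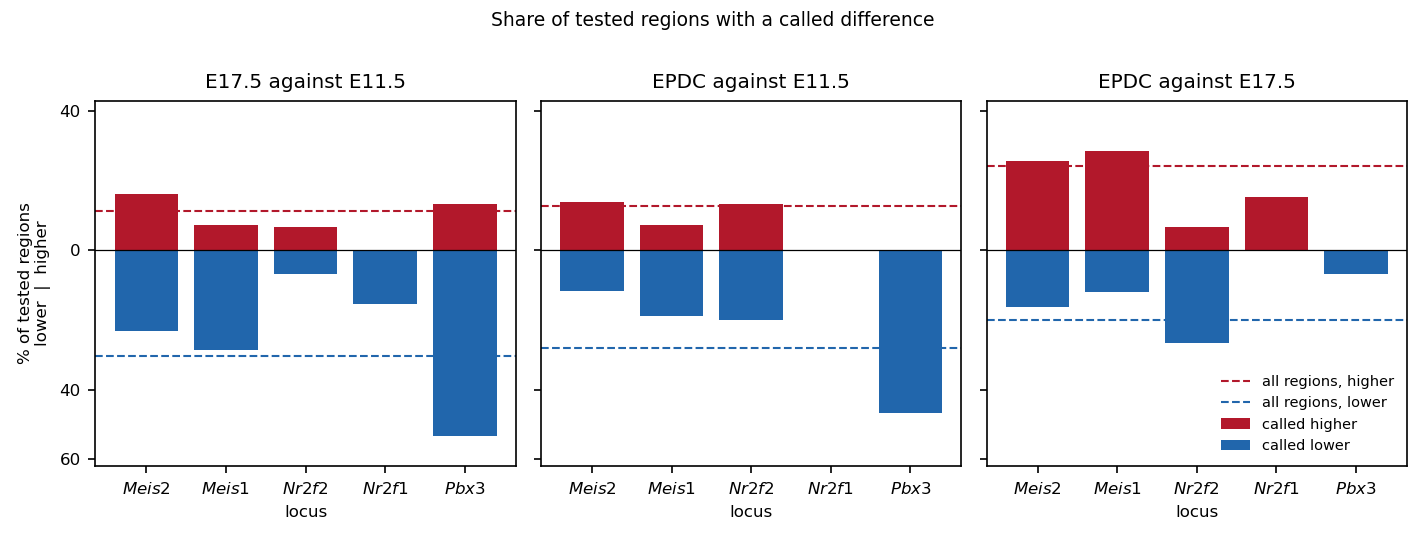
Percentage of the tested regions of each gene that were higher (bars above 0) or lower (bars below 0) at an adjusted p under 0.05 (limma) in the 3 comparisons, with dashed lines for all 130905 regions. *Pbx3* shows the highest share lower than E11.5, 53.3% at E17.5 and 46.7% in EPDC, on 15 regions. These shares include regions that needed the E11.5 libraries to be tested, and the choice of regions favoured their fall.

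At *Meis2*, different regions stood out in each group. The intronic region at +102.9 kb (chr2:115962703-115963203) ranked at 44.1, 59.9 and 50.7 at E11.5, was not listed in E17.5 replicates 1 and 2 and ranked at 12.0 in replicate 3, and reached 79.0, 79.8 and 80.8 in EPDC. The 3 groups did not overlap. Between the epicardial stages its level fell by 47.6 points (SE 6.0, adjusted p = 0.000277, limma), and EPDC were 28.3 points above E11.5 (adjusted p = 0.00513; 43.39 with equal numbers of top summits) and 75.9 above E17.5 (adjusted p = 1.64e-05). The summit held 36, 53 and 42 fragments in the E11.5 libraries and 88, 128 and 273 in EPDC.

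The exonic *Meis2* region at +68.3 kb (chr2:115997285-115997785) was detected in all 3 EPDC libraries, at 26.4, 41.3 and 59.9, and in no epicardial library, 42.5 points above each epicardial group in the mean.

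A higher level at E17.5 was seen at +86.0 kb (chr2:115979624-115980124), again in an intron of *Meis2*. It ranked at 19.3, 15.0 and 0 at E11.5, at 63.3, 71.2 and 48.3 at E17.5, and was not listed in EPDC. The E17.5 mean stood 49.5 points above that of E11.5 and 60.9 above EPDC, with no overlap, and the region needed the E17.5 libraries to be tested. The region at +170.5 kb, also intronic, was highest at E11.5 (64.3, 61.8 and 70.4), intermediate at E17.5 (28.2, 59.8 and 52.6) and lowest in EPDC (21.3, 27.6 and 29.8). It fell by 39.3 points between E11.5 and EPDC (adjusted p = 0.0046, limma), and neither difference from E17.5 passed the test (adjusted p = 0.0976 and 0.0684). That between EPDC and E17.5 passed with equal numbers of top summits (-28.13 points, adjusted p = 0.00916), on the log2 scale (adjusted p = 0.00596) and without E17.5 replicate 1 (-29.94 points, adjusted p = 0.0051), and that between the epicardial stages without E17.5 replicate 2 (-25.14 points, adjusted p = 0.0442).

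Upstream of *Meis2*, 3 of the 6 regions were detected in all 9 libraries, whereas -0.6 kb was listed in 5 and the 2 farthest in 1 each. The region at -1.3 kb, which holds the joined PBX and MEIS motif, ranked at 77.8 to 86.8 in all 9 libraries, with differences between groups of 0.7 to 3.0 points that did not pass the test. The region at -10.3 kb ranked at 68.8, 80.5 and 77.5 at E11.5, at 41.6, 63.2 and 65.2 at E17.5, and at 83.6, 84.1 and 86.7 in EPDC. EPDC were 28.1 points above E17.5 (adjusted p = 0.00447, limma). The fall of 18.9 points from E11.5 to E17.5 (adjusted p = 0.032) was lost without E11.5 replicate 2 or 3 (-16.49 and -17.99 points, adjusted p = 0.109 and 0.0908).

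**Figure D3:**
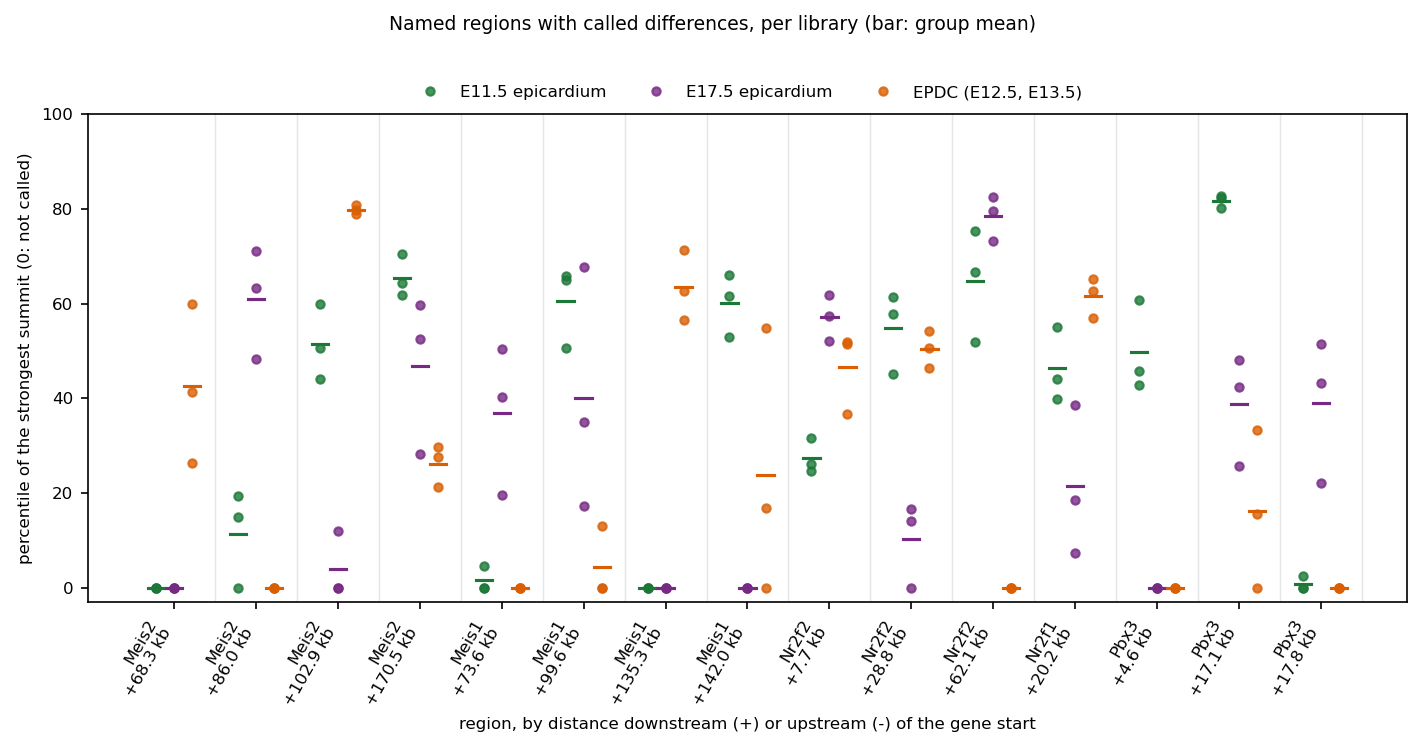
Rank percentile (y axis) of 15 named regions in each of the 9 libraries, drawn as points by group (E11.5 epicardium, E17.5 epicardium, EPDC), with the group mean as a bar. *Meis2* +102.9 kb separates all 3 groups, and *Nr2f2* +62.1 kb is at 0 in the 3 EPDC libraries.

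At *Meis1* the 2 strongest distal regions were detected in all 9 libraries and differed by less than 10 points between groups. That at +29.8 kb (chr11:18988911-18989411) ranked at 88.5, 93.1 and 92.6 at E11.5, at 84.3, 87.8 and 81.2 at E17.5, and at 89.9, 91.3 and 91.2 in EPDC. It fell by 7.0 points to E17.5 (adjusted p = 0.0136, limma), and EPDC were 6.4 points above E17.5 (adjusted p = 0.0194). These calls were lost when summits were ranked by fold enrichment (-0.55 and 0.46 points, adjusted p = 0.889 and 0.911), the first also without E11.5 replicate 2 or 3 (-6.14 and -6.40 points, adjusted p = 0.0548 and 0.0506) and the second without E17.5 replicate 3 or EPDC E13.5 replicate 1 (4.76 and 6.14 points, adjusted p = 0.0649 and 0.0571). That at +126.3 kb (chr11:18892439-18892939) ranked at 83.8 to 92.0 in epicardium and at 74.3, 81.9 and 85.5 in EPDC, below every E11.5 library (difference -9.8, adjusted p = 0.0219, limma). This call was lost without E11.5 replicate 2 or 3 (-9.05 and -9.24 points, adjusted p = 0.0742 and 0.0692) and when ranked by fold enrichment (-6.60 points, adjusted p = 0.163).

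Larger differences were seen at other *Meis1* regions, some of them strong. The region at +77.8 kb, named after its values were seen, ranked at 86.2, 79.7 and 79.7 at E11.5, at 51.7 to 69.9 at E17.5, and at 93.0, 94.1 and 93.4 in EPDC. It fell by 23.3 points to E17.5 (adjusted p = 0.00263, limma), and EPDC were 34.9 points above E17.5 (adjusted p = 0.000221). The region at +73.6 kb (chr11:18945168-18945668, intron) ranked at 19.7, 50.5 and 40.3 at E17.5, at 4.7 in E11.5 replicate 3, and was listed in no other library. The E17.5 mean stood 35.2 points above that of E11.5, and the region needed the E17.5 libraries to be tested.

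A *Meis1* region at +135.3 kb (chr11:18883463-18883963), in the UTR at the end of the gene, was detected in EPDC and in no epicardial library. It ranked at 62.7, 56.5 and 71.3, with 51, 64 and 201 fragments at the summit, 63.5 points above each epicardial group in the mean. Regions detected in all EPDC and no epicardial library numbered 4 in all, 2 at *Meis1* and 2 at *Meis2* (2.37% of the 169, and 3.23% of all regions).

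Intronic accessibility at +99.6 kb of *Meis1* (chr11:18919101-18919601) was lowest in EPDC, at 13.1, 0 and 0. The E11.5 libraries ranked at 50.7, 65.9 and 65.0, and those of E17.5 were spread from 17.3 to 67.8. EPDC were below E11.5 (difference -56.2, SE 11.8, adjusted p = 0.00503, limma) and below E17.5 (difference -35.7, adjusted p = 0.0357), the second lost without E17.5 replicate 2 or 3 or either E13.5 EPDC library (-38.22 to -21.81 points, adjusted p = 0.0641 to 0.0957). The epicardial stages overlapped (difference -20.5, adjusted p = 0.202), and without E17.5 replicate 2 the difference was -34.36 points and passed (adjusted p = 0.0165). The intergenic region at +142.0 kb ranked at 66.1, 61.6 and 53.0 at E11.5, was not listed at E17.5, and ranked at 16.9, 54.8 and 0 in EPDC. The E17.5 mean stood 60.3 points below that of E11.5, and the region needed the E11.5 libraries to be tested. The difference of E17.5 from E11.5 was 3.89 points when the strongest summit of any overlapping peak was taken.

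At *Pbx3*, a partner of the MEIS proteins, 8 of the 12 tested regions outside its own promoter were lower at E17.5 and 7 of 12 lower in EPDC than at E11.5 (30.5% and 28.0% of all regions), while the region at the start site ranked at 93.9 to 98.1 throughout. Both counts include +243.0, +147.7, +34.0 and +4.6 kb, and that in EPDC also +197.3 kb, which needed the E11.5 libraries to be tested. The choice of regions favoured the fall of these. The intronic region at +17.1 kb (chr2:34355794-34356294) ranked at 80.2, 82.8 and 82.2 at E11.5, at 25.8, 48.1 and 42.5 at E17.5, and at 33.3, 0 and 15.6 in EPDC. Every E11.5 library lay above every other library. It fell by 42.9 points to E17.5 (SE 9.0, adjusted p = 0.00455, limma) and by 65.4 to EPDC (adjusted p = 0.000547).

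The exonic region at +4.6 kb of *Pbx3* (chr2:34368274-34368774) was listed only at E11.5, at 45.8, 42.9 and 60.7, with 93, 90 and 98 fragments. Its mean there was 49.8, against 0 in both other groups. The E11.5 mean stood 29.6 points above the others with equal numbers of top summits and 10.3 above when summits were ranked by fold enrichment, which was 2.7 to 3.7 here. The region at +17.8 kb, next to +17.1 kb, was detected in all E17.5 libraries (22.1, 43.2 and 51.5), at 2.4 in E11.5 replicate 2, and not in EPDC. The E17.5 mean stood 38.1 points above that of E11.5, a difference of -12.55 points when any overlapping peak was counted, and the region needed the E17.5 libraries to be tested. In all, 4 of the 22 regions at this locus were detected in all E11.5 libraries and in no E17.5 library, +4.6 kb included (18.2%, and 10.4% of all regions). Near the edge of the window, the region at -33.7 kb is the promoter of the neighbouring gene *Mapkap1* and ranked at 93.8 to 98.4.

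*Nr2f2* held the single region of the 169 that was detected in all 6 epicardial libraries and in no EPDC library (0.592%, and 2.12% of all regions). This region, at +62.1 kb (chr7:70304391-70304891), ranked at 52.0, 75.4 and 66.7 at E11.5 and at 73.2, 82.6 and 79.6 at E17.5, with 34 to 108 fragments at the summit. EPDC were below E11.5 (difference -64.7, SE 6.5, adjusted p = 0.00011, limma) and below E17.5 (difference -78.5, adjusted p = 2.24e-05). The E17.5 and E11.5 epicardium overlapped there (difference 13.8, adjusted p = 0.125, limma), but the difference passed with equal numbers of top summits (24.16 points, adjusted p = 0.0103) and on the log2 scale (0.93, adjusted p = 0.00828).

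A second intergenic region, *Nr2f2* +28.8 kb (chr7:70337728-70338228), followed stage within the epicardium. It ranked at 57.8, 61.3 and 45.2 at E11.5, at 16.6, 14.2 and 0 at E17.5, and at 54.2, 50.7 and 46.4 in EPDC. It fell by 44.5 points to E17.5 (SE 6.8, adjusted p = 0.000819, limma). When summits were ranked by fold enrichment it fell by 25.9 points (adjusted p = 0.0317). EPDC were 40.2 points above E17.5 (adjusted p = 0.0012). The region at +34.8 kb, among the strongest distal regions of the locus, ranked at 84.4, 87.0 and 85.2 at E11.5, at 75.9, 86.5 and 84.4 at E17.5, and at 71.6, 73.1 and 76.7 in EPDC. EPDC lay below every E11.5 library (difference -11.8, adjusted p = 0.00917, limma), a call lost when ranked by fold enrichment (-7.49 points, adjusted p = 0.117). The difference from E17.5 (-8.5, adjusted p = 0.0353) was lost without E17.5 replicate 2 or 3, EPDC E12.5 or EPDC E13.5 replicate 1 (-8.11 to -6.37 points, adjusted p = 0.0894 to 0.127).

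At *Nr2f1*, 2 of 13 tested regions passed the test between the epicardial stages. The region at +20.2 kb (chr13:78179258-78179758, intergenic, inside the non-coding genes 3110006O06Rik and Gm38604) ranked at 44.0, 55.1 and 39.9 at E11.5, at 18.5, 38.6 and 7.4 at E17.5, and at 62.6, 56.9 and 65.3 in EPDC. EPDC were 40.1 points above E17.5 (SE 8.3, adjusted p = 0.00374, limma). Between the epicardial stages it fell by 24.8 points (adjusted p = 0.0397, limma), a call that was lost when any E11.5 library, E17.5 replicate 1 or 3, or EPDC E13.5 replicate 1 was left out, with differences of -28.04 to -17.79 points and adjusted p-values of 0.0513 to 0.141. In all it was lost under 12 of 17 alternatives, and the difference shrank to -12.98 points with equal numbers of top summits (adjusted p = 0.188) and to -9.67 when summits were ranked by fold enrichment (adjusted p = 0.427).

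The strongest distal region of *Nr2f1*, at +36.5 kb (chr13:78162975-78163475) inside *Fam172a*, moved less but more evenly. It ranked at 93.6, 96.4 and 93.5 at E11.5, at 83.8, 87.0 and 84.7 at E17.5, and at 94.1, 91.2 and 93.0 in EPDC. All E17.5 libraries lay below all others. It fell by 9.4 points between the stages (SE 1.3, adjusted p = 0.000499, limma), and EPDC were 7.6 points above E17.5 (adjusted p = 0.00128). Both differences were lost when summits were ranked by fold enrichment, at -3.88 and 2.32 points (adjusted p = 0.124 and 0.34).

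The mean percentile over the tested regions of a locus gives each gene 1 level per library. *Pbx3* fell from 46.7 ± 3.2 at E11.5 (43.3, 47.1 and 49.6) to 30.6 ± 6.9 at E17.5 (22.8, 35.8 and 33.3) and 29.8 ± 7.4 in EPDC (22.6, 29.3 and 37.4; SD, n = 3). The E11.5 libraries lay above all others, and the mean fell by 16.0 points (SE 4.2, adjusted p = 0.00126, limma over 18146 genes) to E17.5 and by 16.9 points (adjusted p = 0.000552) to EPDC. The difference between the latter groups was -0.9 (adjusted p = 0.891). With equal numbers of top summits the differences were -8.74 and -10.73 (adjusted p = 0.0128 and 0.00467). Without E11.5 replicate 2 they were -11.61 and -12.61 (adjusted p = 0.0944 and 0.0553), and without replicate 3 they were -11.55 and -12.55 (adjusted p = 0.0986 and 0.058), so neither passed the test. Among the regions of this mean, +243.0, +197.3, +147.7, +34.0 and +4.6 kb needed the E11.5 libraries to be tested, and +17.8 kb those of E17.5. The choice of regions thus favoured a higher *Pbx3* mean at E11.5, and the test does not allow for this. Among all genes, 31.0% were lower at E17.5 and 5.46% higher, 40.4% were lower and 5.98% higher in EPDC than at E11.5, and 23.7% were lower and 16.6% higher in EPDC than at E17.5. The median gene moved by -4.73, -7.07 and -1.92 points in these comparisons.

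No locus mean of the other 4 genes passed the test (limma; at an unadjusted p under 0.05, 2 of the 5 were lower at E17.5 and 1 lower in EPDC than at E11.5, and 1 was higher in EPDC than at E17.5). *Nr2f1* stood at 48.7 ± 2.3, 39.5 ± 4.2 and 47.9 ± 6.1 (E11.5, E17.5, EPDC; SD, n = 3), a difference of -9.2 between the epicardial stages (adjusted p = 0.0619, limma) with no overlap. It passed on the log2 scale (adjusted p = 0.0144), with the epicardial libraries alone (0.0449), and without E17.5 replicate 2 (-11.36 points, 0.0334), EPDC E12.5 (-9.27 points, 0.0484) or EPDC E13.5 replicate 2 (-9.45 points, 0.0259). *Nr2f2* stood at 50.5, 51.9 and 47.6 at E11.5, at 45.6 ± 6.2 at E17.5 and at 43.8 ± 1.9 in EPDC, with overlap between E17.5 and each other group. All EPDC libraries lay below those of E11.5 (difference -6.2, adjusted p = 0.193, limma). On the log2 scale, *Nr2f2* passed as lower in EPDC than at E11.5 (-0.29, adjusted p = 0.0378) and at E17.5 (-0.27, adjusted p = 0.0464). *Nr2f1* passed there as higher in EPDC than at E17.5 (0.24, adjusted p = 0.0429). *Meis1* stood at 43.3 ± 1.3, 36.2 ± 5.2 and 41.8 ± 4.9, and its difference between the epicardial stages passed without E17.5 replicate 2 (-11.93 points, adjusted p = 0.026). *Meis2* stood at 32.1 ± 2.4, 27.9 ± 4.9 and 31.9 ± 6.6. *Meis2* was the lowest of the 5 at E11.5, and at E17.5 and in EPDC *Meis2* and *Pbx3* differed by less than their spread. With equal numbers of top summits, the small differences of *Nr2f1* in EPDC against E11.5 (5.71), *Nr2f2* at E17.5 against E11.5 (6.49) and *Meis2* in EPDC against E11.5 (6.5) were positive and passed the test, opposite in sign to those above, and in EPDC against E17.5 the differences of *Nr2f1* (7.49) and *Meis1* (5.74) passed too.

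**Figure D4:**
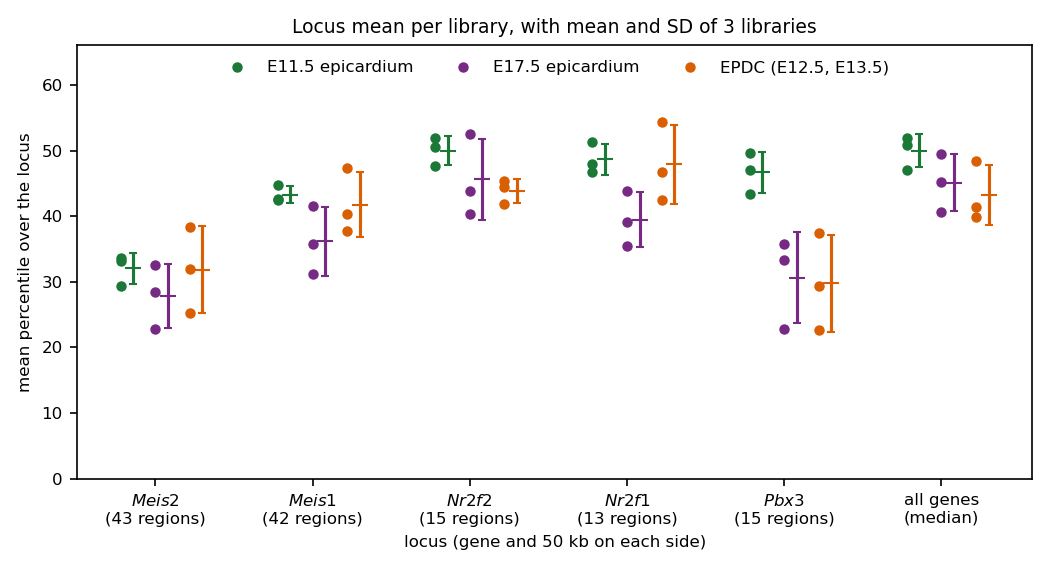
Mean rank percentile of the tested regions of each locus (y axis) in the 9 libraries, as points by group with the mean and SD (n = 3), and the median over all genes at the right. *Pbx3* is at 43.3 to 49.6 in the E11.5 libraries and at 22.6 to 37.4 in all others.

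A further 9 genes of the 2 families, among them *Nr2f6*, *Meis3* and *Pknox2*, were tested in the same way. From E11.5 to E17.5, 1 of the 9 rose and 2 fell, where 5.46% of all genes rose and 31.0% fell. *Nr2f6*, another orphan receptor, rose by 9.2 points (adjusted p = 0.0396, limma), while *Meis3* fell by 14.0 (adjusted p = 0.00341) and *Pknox2*, a TALE gene of the PREP kind, fell by 21.6 (adjusted p = 6.76e-06). In EPDC compared with E11.5, *Meis3* fell by 20.3 (adjusted p = 1.52e-05, limma), the 1 of 9 that fell (40.4% of all genes), and 0 rose (5.98% of all genes; limma). In EPDC compared with E17.5, *Pknox2* was 19.4 points higher (adjusted p = 4.53e-05, limma) and *Nr2f6* lower (difference -12.3, adjusted p = 0.00463), so 1 of 9 passed each way (16.6% of all genes higher and 23.7% lower).

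The likeness of gene profiles was taken as Pearson's r of the locus means over the 9 libraries, as a description, since the libraries share their groups and their depth. *Nr2f1* was most like *Ntrk2* (0.967), *Foxo3* (0.964) and *Rnft2* (0.962), *Nr2f2* like *Lzic* (0.954), *Pklr* (0.928) and *Nmnat1* (0.902), and *Meis1* had an r of 0.973 with *Ddx18* and of 0.971 with *Defb30*. *Meis2* was most like *Myef2* (0.986), *St5* (0.985) and *Mcu* (0.981), and *Pbx3* like *Exo1* (0.981), *Slc32a1* (0.971) and *Cep63* (0.97). Among the 5 genes, r was 0.908 for *Nr2f1* and *Meis1* and 0.834 for *Meis1* and *Meis2*, but 0.085 for *Nr2f1* and *Nr2f2* and -0.328 for *Nr2f2* and *Pbx3*.

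Binding motifs of the factors themselves were searched on both strands of each tested region, in GRCm38.p6. The MEIS hexamer CTGTCA was found in 37 of the 128 regions (28.9%, and 36.4% of all tested regions), with 44.2% of *Meis2* and 46.7% of *Pbx3* regions but 16.7% of *Meis1*, 15.4% of *Nr2f1* and 13.3% of *Nr2f2*. The receptor half-site AGGTCA was found in 29 (22.7%, and 27.0% of all), of which 15 were at *Meis1* and 0 at *Nr2f2*. A direct repeat of AGGTCA with 1 base between was found in 0 (0.0688% of all) and with 2 bases between in 1 (0.0298% of all), *Meis2* +44.6 kb, a region named after its values were seen. The joined PBX and MEIS site TGATTGAC was found in 1 (0.781%, and 1.16% of all), the *Meis2* region at -1.3 kb printed above.

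Of other motifs, AGATAA, the GATA site, was found in 38 regions (29.7%, and 29.0% of all), the E-box CAGCTG in 25 (19.5%, and 34.5% of all) and the T-box site AGGTGTGA in 2 (1.56%, and 1.89% of all). The median GC content was 47.1% in the 128 regions and 49.1% in all, and it was 57.3% at *Nr2f1*, 56.1% at *Nr2f2* and 43.9% at *Pbx3*. A match is the presence of the letters and not a bound site. The RefSeq promoters of *Nr2f1*, *Nr2f2*, *Meis1* and *Meis2*, each 250 bp before to 50 bp after a start, held none of these motifs, whereas CTGTCA was in 19.2% and AGGTCA in 16.3% of 32851 promoters.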

How the data were processed

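Bulk ATAC-seq libraries of sorted cells were analysed from the peak lists deposited by the authors (10 labelled samples, of which 2 technical replicates of EPDC E13.5 replicate 2 were merged by the authors into 1 list, so 9 libraries in 3 groups of 3). Per the study's methods, reads were aligned to mm10, mitochondrial, blacklisted, duplicate and multimapped reads were removed, and MACS2 2.2.9.1 called summits on fragment pairs at q = 0.01. The authors' deposited lists give, for each summit, the fold enrichment over the local background (a ratio) and its p-value and q-value as -log10. They hold no read counts, so the study's test on window counts was not repeated. The fold and -log10 p of every summit gave whole fragments, from which the fragments and the background were computed.

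Summits of all libraries on chromosomes 1 to 19, X and Y were taken in order of their depth-normalized score. Each was kept as the centre of a 501 bp region unless that region overlapped a kept one. Each region took, in each library, the rank percentile by -log10 p of the strongest summit within 250 bp of its centre, and 0 where none was listed. Differences were tested with limma 3.58.1 (R 4.3.3, trended and robust eBayes) on the 3 groups, over all regions detected in at least 3 libraries, or over the locus means of genes with at least 3 such regions, with Benjamini-Hochberg adjustment and a threshold of 0.05. The scripts were tested on simulated data. EPDC of E12.5 and E13.5 form 1 group, as in the study. Libraries are biological replicates of pooled hearts, and 3 against 3 libraries cannot go below p = 0.1 in an exact permutation test. A summit within 1 kb of a TSS marks a promoter.

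The named regions were, by rule, the promoters of the members, the largest passing and non-overlapping difference each way per gene and comparison, the 2 strongest distal regions detected in all 9 libraries, and the strongest region detected in EPDC or epicardium alone. Some items that these rules select are not reported here. The members, the lists and the rule were chosen with earlier results of these data known. Alternatives were equal numbers of top summits (94909), ranking by fold enrichment, log2 of the depth-normalized score plus 1, any overlapping peak, no filter, a stricter -log10 q of 5, each library left out, the epicardial libraries alone, the replicate number as a block, and a 10 kb flank for genes. Sequences are from the GRCm38.p6 assembly, read with pysam 0.24.0 in Python 3.11.15. Gene bounds, start sites, exons and neighbouring genes are from the GENCODE annotation, and the promoters searched for motifs are those of RefSeq. The *Pbx3* entry of the promoter table and the E13.5 epicardium were not used here.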

Additional observations from a re-analysis of the deposited data

How the results depend on the processing

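Of 29 named differences that passed the test, 14 kept their direction and their side of the threshold under every alternative tried, 15 were lost under at least 1, and 12 of these were lost when a single library was left out. A further 16, on regions that would miss the minimum of 3 libraries without those of 1 group, are not counted here. The 29 include the differences of the *Pbx3* locus mean, which is built in part on such regions. Of 1903 values of single regions and genes under the alternatives, 1763 stayed on their side of the threshold, of which 107 did not pass in either case and changed sign, 76 lost and 58 gained a call, and 6 reversed. The reversed values are those of *Nr2f1* (5.71, EPDC against E11.5), *Nr2f2* (6.49, E17.5 against E11.5) and *Meis2* (6.5, EPDC against E11.5) locus means with equal numbers of top summits, and of *Meis1* +142.0 kb (3.89 for E17.5 and 7.12 for EPDC, against E11.5) and *Pbx3* +17.8 kb (-12.55, E17.5 against E11.5) with any overlapping peak. The causes were not tested. A rank percentile depends on the length of each list, and a list made at lower depth holds fewer weak summits.

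Member regions higher at E17.5 than at E11.5 numbered 21 with equal numbers of top summits (main value 13), and 7 to 15 with a library left out, and those lower numbered 24 to 38. In EPDC against E11.5, 22 were higher with equal numbers of top summits and 17 with any overlapping peak (main value 11), and leaving out a library gave 5 to 13 higher and 13 to 26 lower. In EPDC against E17.5, 26 were lower on the log2 scale (main value 17), and leaving out a library gave 20 to 28 higher and 11 to 19 lower. Of the 5 locus means, 1 passed from E11.5 to E17.5, and 2 passed with equal numbers of top summits, on the log2 scale and with the epicardial libraries alone, 3 with the replicate block and 0 to 3 with a library left out. In EPDC against E11.5, 1 passed, with 3 for equal numbers of top summits, 2 on the log2 scale and 0 to 1 with a library left out. In EPDC against E17.5, 0 passed in limma, with 2 for equal numbers of top summits and 2 on the log2 scale.

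The epicardial libraries share replicate numbers between stages, but same-numbered libraries did not deviate together (r = 0.03, 0.056 and -0.033 over regions), so they share only a number. With the number as a block, 15 member regions were higher and 39 lower at E17.5, against 15 and 31 in the same 6 libraries without the block, and *Nr2f2* +62.1 kb (13.8 points, adjusted p = 0.021) and the *Pbx3* start site (-2.21 points, adjusted p = 0.0419) passed. So did *Nr2f1* -0.9 kb (-30.05 points, adjusted p = 0.0175) and *Meis1* +126.3 kb (-3.33 points, adjusted p = 0.046). The locus means of *Nr2f1* (-9.27 points, adjusted p = 0.00973) and *Meis1* (-7.53 points, adjusted p = 0.0291) passed too.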

Other observations

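Among regions outside the rule above, named after their values were seen, an intronic *Meis1* region at +10.9 kb ranked at 55.8, 64.1 and 69.2 at E11.5, at 27.7, 26.3 and 26.0 at E17.5, and at 64.9, 61.8 and 66.7 in EPDC. The E17.5 libraries lay below all others. Between the epicardial stages the level fell by 36.4 points (adjusted p = 0.000417, limma), and EPDC were 37.8 points above E17.5 (adjusted p = 0.000259). An intronic *Meis2* region at +12.6 kb was listed in both E13.5 EPDC libraries, at 52.9 and 67.6, and in no other library, the E12.5 EPDC library included. Detected in 2 libraries, it was not tested. The region at the 5'-most *Nr2f2* start site (+0.3 kb) was listed in E17.5 replicates 2 and 3, at 46.3 and 36.9, and in no other library, and was not tested either.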
